A study of Mus musculus with 6 samples.

Results

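T cells of the epidermis were followed through 40 genes in mouse back epidermis with and without Spry1, a brake on signalling by receptor tyrosine kinases. The 40 genes were taken by name from a table of 54532 genes and fall into 3 classes. There are 4 gamma-delta receptor segments (Tcrg-V5, Tcrg-C1, Trdv4 and Trdc), 6 alpha-beta receptor and coreceptor genes (Trac, Trbc1, Trbc2, Cd4, Cd8a and Cd8b1), and 30 genes of T cells in general or of effector function. The 3 control samples, Control 1 to 3, had the genotype Spry1flox/flox without Cre. The 3 knockout samples, Spry1_KO 1 to 3, carried Spry1flox/flox and K14-Cre-ERT2, a recombinase under the keratin 14 promoter of basal keratinocytes that tamoxifen switches on. Both groups had tamoxifen by gavage at 0.1 mg per g, 4 times a week for 4 weeks. The keratin 14 promoter belongs to keratinocytes and is not known for activity in T cells. A group with Cre and without floxed Spry1 was not analysed here, so Cre and the loss of Spry1 cannot be told apart. The age of the mice is not given in the sources used here. Nothing in the labels states that each sample is a different animal, so p-values measure the spread between these samples, which may be technical.

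T cells read antigen through a receptor of paired chains, either alpha with beta or gamma with delta. Each chain is joined from variable (V), joining (J) and, for beta and delta, diversity (D) segments, followed by a constant (C) region. Both receptor kinds sit in a complex with CD3 chains and zeta, which carry the signal into the cell. In mouse epidermis most T cells are dendritic epidermal T cells, a gamma-delta lineage seeded before birth whose receptor uses Tcrg-V5 with Tcrg-C1 and Trdv4 with Trdc. Alpha-beta T cells with the coreceptor CD4 or CD8 enter the skin from blood, and some stay as resident memory cells.

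The 3′ ends of V segments can be alike between gamma-delta lineages. The last 60 bases are given for Tcrg-V5 and Trdv4, the V segments of the epidermal receptor, and for 2 neighbours of Tcrg-V5 that serve other gamma-delta lineages. Capitals mark the bases from the conserved cysteine codon to the end of the segment, where joining takes place. All are from GENCODE M21 transcripts on GRCm38, forward strand. They lie at chr13:19192666-19192725 (Tcrg-V5), chr14:54075456-54075515 (Trdv4), chr13:19185447-19185506 (Tcrg-V4) and chr13:19190870-19190929 (Tcrg-V6).
Tcrg-V5: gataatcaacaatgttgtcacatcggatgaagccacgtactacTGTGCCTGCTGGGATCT
Trdv4: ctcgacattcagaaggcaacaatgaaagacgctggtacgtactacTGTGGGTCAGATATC
Tcrg-V4: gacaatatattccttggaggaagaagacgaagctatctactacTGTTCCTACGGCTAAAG
Tcrg-V6: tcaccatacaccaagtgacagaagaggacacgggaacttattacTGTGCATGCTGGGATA
The capitals of Tcrg-V5 and Tcrg-V6 are nearly the same, so these ends alone do not set the 2 segments apart. Over whole transcripts, local alignment of Tcrg-V5 with Tcrg-V4 and Tcrg-V6 took in only 25 and 24 columns, 20 and 21 of them identical. With Tcrg-V1 it took in 23 columns, 22 of them identical. The constant genes are alike over far longer stretches. Tcrg-C1 was 94.5% identical to Tcrg-C2 over 922 aligned columns and 96.9% identical to Tcrg-C3 over 649, and Trbc1 was 95.6% identical to Trbc2 over 521. The division of reads within these constant families is therefore uncertain.

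Spry1 read 25.8, 28.2 and 34.4 FPKM (fragments per kilobase of gene, scaled for sequencing depth) across the controls against 1.06, 1.49 and 1.28 FPKM across the knockouts. Back-calculated read totals lay between 18379037 and 21020460 per sample. Differences were tested with limma on log2(FPKM + 1) for the 12629 genes whose mean reached 1 FPKM, and a gene passed at an adjusted p under 0.05. Of these, 3736 were higher in the knockout (29.6%) and 3079 lower (24.4%). TPM scaling, which divides by the FPKM sum, gave 2055 and 4470. Control 3 stood apart from the other controls on the second principal component, which held 8.48% of the variance. The sex of the mice is not given in the sources used here. Eif2s3y, a gene of the Y chromosome, read 19.3 FPKM in Spry1_KO 2, 0.203 and 0.0438 FPKM in the other knockouts and 0 in all 3 controls. Xist, expressed from the inactive X chromosome of females, read 1.31 FPKM in Spry1_KO 2 and 20.0 to 89.1 FPKM in the other 5 samples. Spry1_KO 2 thus differed from the rest in both sex-linked genes. This library was the lowest knockout in 36 of the 40 genes, or 90% (33.0% of all tested genes), and Control 3 the lowest control in 33, or 82.5% (43.7% of all tested genes). Leaving out this pair together left 12 higher and 13 lower among the 40. The 6 basal keratinocyte markers summed to 9980, 10802 and 10936 FPKM across the controls against 17988, 21593 and 17363 FPKM across the knockouts, with 2 of them called higher and 4 lower. The part of this shift in the T cell values was not tested.

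The gamma-delta segments fell together while the alpha-beta genes that changed rose. Of the 40 genes 34 passed the filter on low values, and 12 of them rose and 12 fell, each 35.3% of those tested against 29.6% and 24.4% of all genes. The other 10 did not pass the test, and 6 lay below the filter. By class, 4 of 4 gamma-delta segments fell with a median log2 fold change of -2.93. Of the 6 alpha-beta genes 4 rose and none fell (median 1.06), and of 24 tested genes of the general class 8 rose and 8 fell (median 0.05). The median over all tested genes was 0.03. The groups did not overlap in 12 tested members that were higher, where 34.9% of all genes did so, and in 13 that were lower, where 29.4% did. Among the 12 risen genes 10 had a control mean under 1 FPKM and passed the filter only through the knockouts. Among the 12 fallen genes 2 had a knockout mean under 1 FPKM and passed it only through the controls. Counts over the tested genes are therefore a description. In tissue RNA, fewer cells of a type and less RNA per cell cannot be told apart.

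**Figure D1:**
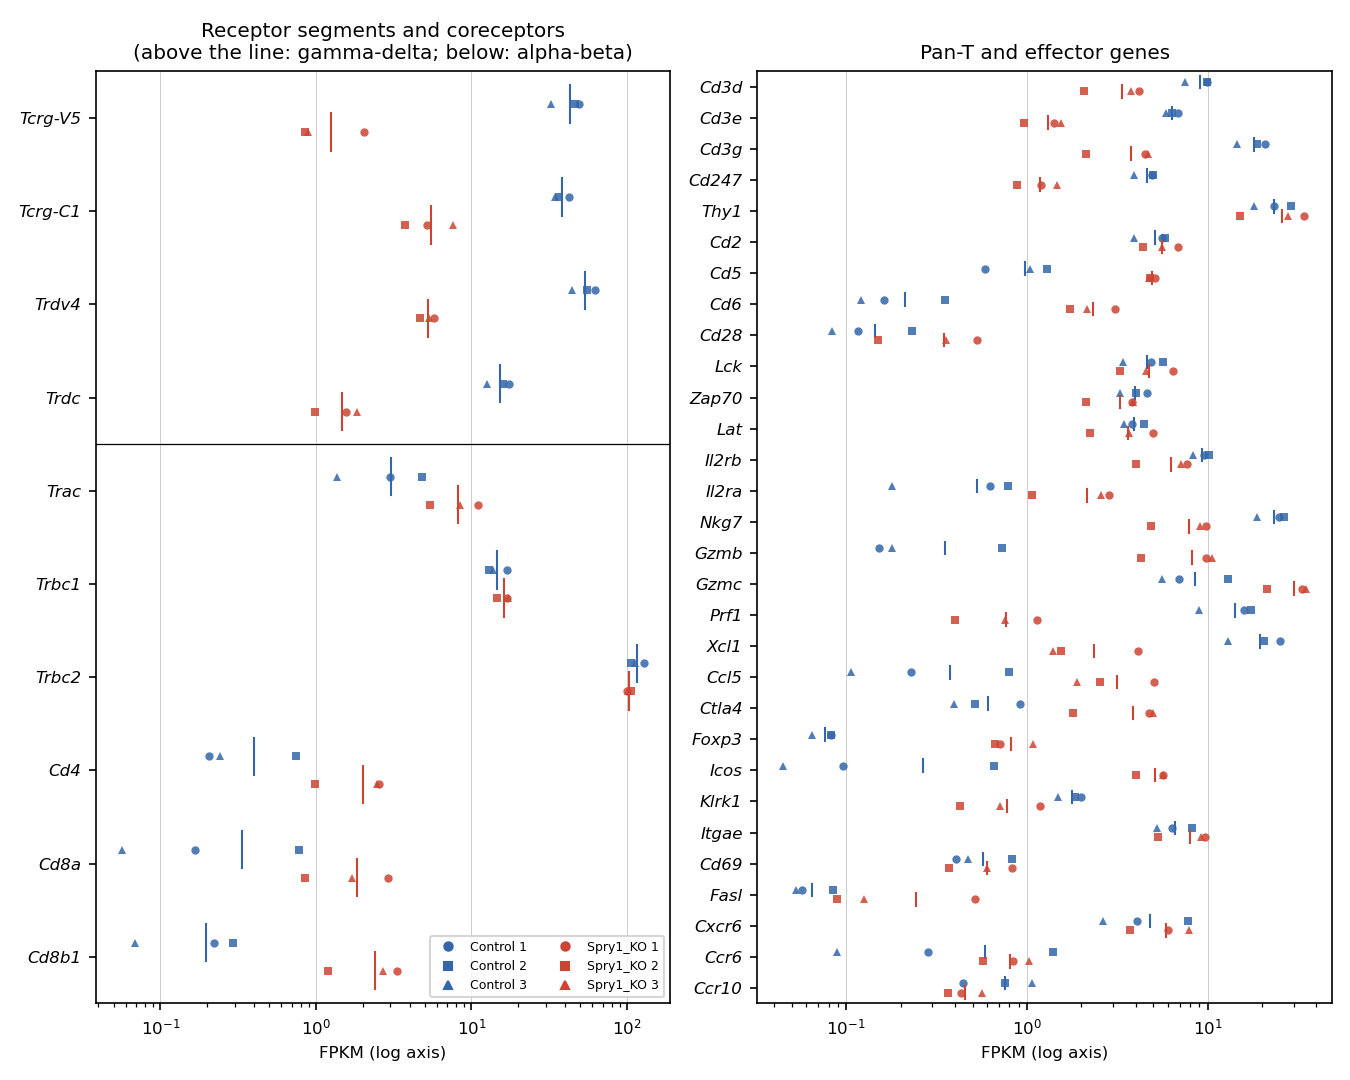
FPKM on a log axis of each of the 40 T cell genes in every sample, with controls in blue, knockouts in red, the replicate number as circle, square or triangle and the group mean as a vertical tick. The gamma-delta segments sit to the left of the controls in all 3 knockouts, from Tcrg-V5 (mean 1.26 against 42.8 FPKM) to Trdc (1.46 against 15.3 FPKM).

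The segment that marks the epidermal lineage fell furthest. Tcrg-V5, on GRCm38 chromosome 13 from 19192278 to 19192725, read 49.2, 46.7 and 32.5 FPKM across the controls against 2.04, 0.845 and 0.891 FPKM across the knockouts. Every control lay far above every knockout, and the counts behind these values were 306, 291 and 216 reads against 14, 5 and 5. The means were 42.8 ± 9.01 and 1.26 ± 0.679 FPKM (SD, n = 3 each), a 34.0-fold lower mean in the knockout. On the log2(FPKM + 1) scale it fell by 4.29 ± 0.24 (SE; limma adjusted p of 3.82e-05). This scale understates the change of low genes.

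Its delta partner behaved alike. Trdv4, the V segment on chromosome 14 from 54074905 to 54075515, read 62.2, 55.7 and 44.0 FPKM across the controls against 5.72, 4.67 and 5.34 FPKM across the knockouts. The knockout values lay close together and far below every control. The mean was 10.3-fold lower, with a log2 change of -3.13 ± 0.14 (SE) and a limma adjusted p of 1.68e-05. Trdc, the delta constant gene at 54142851 to 54148868 on the same chromosome, read 17.4, 16.0 and 12.6 FPKM against 1.57, 0.984 and 1.84 FPKM. It was 10.5-fold lower (log2 change -2.73 ± 0.17 SE, limma adjusted p of 5.6e-05), on 1229, 1130 and 947 reads against 122, 66 and 117. Its exons share 207 bases with Trdv5 and 96 with Gm43434 on the opposite strand, and whether counting used strand is not given in the sources used here. Tcrg-C1, the gamma constant gene on chromosome 13 from 19214103 to 19217024, read 42.6, 36.6 and 34.7 FPKM against 5.17, 3.74 and 7.63 FPKM. Its mean was 6.89-fold lower (log2 change -2.62 ± 0.21 SE, limma adjusted p of 0.000142). The fall of the constant gene was smaller than that of Tcrg-V5, and the difference between the genes was not tested. Summed over the 4 segments, the samples read 171, 155 and 124 FPKM across the controls against 14.5, 10.2 and 15.7 FPKM across the knockouts. All 4 calls held under all 20 alternative settings.

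The alpha chain moved the other way. Trac, the alpha constant gene on chromosome 14 from 54220521 to 54224206, read 2.99, 4.80 and 1.37 FPKM across the controls against 11.0, 5.42 and 8.39 FPKM across the knockouts. The lowest knockout lay just above the highest control, with 88 against 82 reads. The means were 3.05 ± 1.71 and 8.26 ± 2.77 FPKM (SD, n = 3 each), a 2.70-fold rise with a log2 change of 1.24 ± 0.36 (SE) and a limma adjusted p of 0.0235. The call was lost without Control 1, Spry1_KO 1 or Spry1_KO 3 (limma adjusted p of 0.0546, 0.0782 and 0.0705) and without the filter (0.0579).

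The coreceptors CD4, which binds MHC class II, and CD8, which binds MHC class I, were near 0 in the controls. Cd4 read 0.204, 0.746 and 0.242 FPKM against 2.54, 0.986 and 2.46 FPKM, a 5.02-fold rise (log2 change 1.07 ± 0.27 SE, limma adjusted p of 0.0141). Cd8a read 0.166, 0.782 and 0.0564 FPKM against 2.93, 0.856 and 1.70 FPKM, a 5.47-fold rise (log2 change 1.06 ± 0.32 SE, limma adjusted p of 0.0282). Cd8b1, the beta chain of CD8, read 0.222, 0.295 and 0.0692 FPKM against 3.32, 1.20 and 2.71 FPKM. Its rise was 12.3-fold (log2 change 1.46 ± 0.26 SE, limma adjusted p of 0.00329), on 6, 8 and 2 reads against 99, 31 and 66. In all 3 genes Spry1_KO 2 was the lowest knockout, and for Cd4 and Cd8a it lay close to Control 2. With the same genes tested, leaving out Spry1_KO 1 or Spry1_KO 3 left 1 of the 4 rises past the threshold each time, that of Cd8b1. Without Control 1 Trac and Cd8a lost their calls, and without Control 3 Cd8a did (limma adjusted p of 0.0799 and 0.0689).

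The beta constant genes did not pass the test. Trbc1 read 16.8, 12.9 and 13.8 FPKM across the controls against 16.9, 14.5 and 17.1 FPKM across the knockouts. The groups overlapped, with a log2 difference of 0.15 and a 95% interval from -0.13 to 0.43 (limma adjusted p of 0.317). Trbc2 read 129, 107 and 113 FPKM against 99.5, 107 and 101 FPKM. Its log2 difference was -0.17 with an interval from -0.41 to 0.06 (limma adjusted p of 0.174), and under TPM scaling it was lower at -0.45 (limma adjusted p of 0.0115). Per length, Trbc2 was the most abundant of the 10 receptor and coreceptor genes in every sample. In both groups its level stood far above that of Trac, the partner chain.

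The balance of delta to alpha turned over within each sample. Trdc stood 5.83, 3.33 and 9.16 times above Trac in the controls. In the knockouts Trac stood 6.98, 5.51 and 4.56 times above Trdc. As a share of both FPKM values together, Trdc was 85.4%, 76.9% and 90.2% in the controls and 12.5%, 15.4% and 18.0% in the knockouts. Spry1_KO 2, low in both genes, sat between the other knockouts in this share, and the groups lay far apart. The sum of both was 20.4, 20.8 and 13.9 FPKM across the controls against 12.5, 6.41 and 10.2 FPKM across the knockouts.

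**Figure D2:**
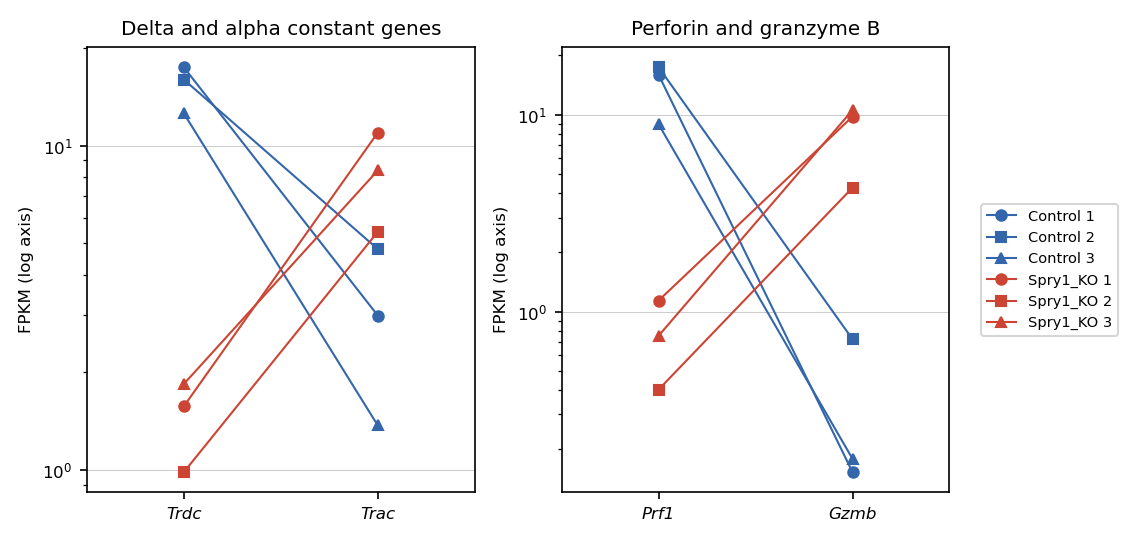
FPKM on a log axis of Trdc and Trac (left) and of Prf1 and Gzmb (right), with a line per sample, controls in blue and knockouts in red. Every control line falls from left to right and every knockout line rises, as in the Trdc share of 76.9% to 90.2% against 12.5% to 18.0%.

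Receptor segments outside the 40 genes were sparse. Of the gamma constant genes, Tcrg-C4 read 5.57, 4.27 and 4.11 FPKM across the controls against 1.82, 0.761 and 0.802 FPKM across the knockouts, a fall of log2 change -1.44 (limma adjusted p of 0.00142). Tcrg-C2 fell by 1.02 on the log2 scale with overlapping groups (limma adjusted p of 0.0374). Tcrg-C4 was 83.8% identical to Tcrg-C1 over 308 aligned columns, and Tcrg-C2 is closer, as given above. Tcrg-V1 fell from a mean of 1.85 to 0.527 FPKM (limma adjusted p of 0.0203). The 5 gamma V segments other than Tcrg-V5, with Tcrg-V1 among them, together held 16, 18 and 25 reads in the controls. In the knockouts they held 22, 10 and 26.

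The V segments of alpha and beta chains were low in single rows, and none reached the filter. Summed over 128 rows, Trav segments held 8, 21 and 1 reads in the controls and 48, 19 and 36 in the knockouts. Over 35 rows, Trbv segments held 26, 56 and 10 reads against 112, 62 and 82. The Trav sums overlapped between the groups and the Trbv sums did not, with Control 2 the highest control in both. Of 12 tested beta J segments 3 fell, or 25% against 24.4% of all genes, and none rose. Trbj2-7, on chromosome 6 from 41543810 to 41543856, read 51.4, 45.4 and 42.6 FPKM against 21.2, 18.4 and 18.1 FPKM (log2 change -1.23 ± 0.10 SE, limma adjusted p of 0.000161). With a length of 47 bases this rests on 44, 39 and 39 reads against 20, 15 and 14. Trbj2-1 fell by 2.31 on the log2 scale (limma adjusted p of 0.000386), and Trbj1-2 is listed at 0 in every knockout against 6, 2 and 6 reads in the controls (limma adjusted p of 0.000875). The remaining tested segments, Trbd1, Trbd2, Trdj1, Trbj1-1, Trbj1-3, Trbj1-4, Trbj1-5, Trbj1-6, Trbj2-2, Trbj2-3, Trbj2-5 and Trbj2-6, did not pass.

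The CD3 chains and zeta, the signalling chains of the complex, fell in 4 of 4 genes, where 24.4% of all tested genes fell. Their median log2 change was -1.52. Cd3e, on chromosome 9 from 44998740 to 45009627, read 6.87, 6.33 and 5.89 FPKM across the controls against 1.41, 0.960 and 1.55 FPKM across the knockouts. Its mean was 4.86-fold lower (log2 change -1.68 ± 0.13 SE, limma adjusted p of 0.000108). Cd3g read 20.8, 18.7 and 14.6 FPKM against 4.48, 2.13 and 4.67 FPKM (log2 change -2.03 ± 0.25 SE, limma adjusted p of 0.000675). In both genes each knockout lay far below each control. Cd3d fell less, from 9.88, 9.91 and 7.46 FPKM to 4.19, 2.06 and 3.75 FPKM (log2 change -1.24 ± 0.21 SE, limma adjusted p of 0.00294). Cd247, the zeta chain, read 4.89, 4.98 and 3.93 FPKM against 1.20, 0.876 and 1.46 FPKM (log2 change -1.37 ± 0.14 SE, limma adjusted p of 0.000335). It shares 3007 exon bases with Pou2f1 on the opposite strand. Per Cd3e, Trdc stood at 2.54, 2.53 and 2.14 in the controls and 1.11, 1.02 and 1.19 in the knockouts. Trac per Cd3e stood at 0.436, 0.758 and 0.233 against 7.75, 5.65 and 5.41.

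The kinases and adaptor that act next did not pass the test. Lck, which phosphorylates the CD3 chains, read 4.85, 5.64 and 3.42 FPKM across the controls against 6.41, 3.29 and 4.57 FPKM across the knockouts. The groups overlapped around a log2 difference of 0.01, with a 95% interval from -0.54 to 0.56 (limma adjusted p of 0.964). Zap70, the kinase recruited to the phosphorylated chains, had a difference of -0.25 with an interval from -0.72 to 0.23 (limma adjusted p of 0.329). Lat, the adaptor it acts on, had -0.13 with an interval from -0.66 to 0.40 (limma adjusted p of 0.661). These intervals lie above the changes of Cd3e and Cd3g, though the difference between the genes was not tested.

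Of 6 tested surface and costimulatory genes 4 rose and none fell, where 29.6% of all tested genes rose and 24.4% fell. Thy1 and Cd2, adhesion proteins found on nearly all T cells, were already well expressed in the controls and did not pass. Thy1 read 23.2, 28.8 and 18.2 FPKM across the controls against 34.0, 15.2 and 28.0 FPKM across the knockouts (log2 difference 0.08, interval -0.63 to 0.80, limma adjusted p of 0.832). Cd2 had a log2 difference of 0.12 with an interval from -0.31 to 0.54 (limma adjusted p of 0.613). The 4 other tested genes of the group all rose. Each had a control mean under 1 FPKM and passed the filter only through the knockouts. Icos, an inducible costimulator of activated T cells, rose most. It read 0.0960, 0.654 and 0.0449 FPKM against 5.64, 4.00 and 5.65 FPKM, with 6, 41 and 3 reads against 389, 238 and 319 (log2 change 2.29 ± 0.21 SE, limma adjusted p of 0.000239). Cd5, a brake on receptor signalling, read 0.583, 1.30 and 1.04 FPKM against 5.12, 4.79 and 4.76 FPKM, and the 3 knockouts were nearly level. Its rise was 5.03-fold (log2 change 1.59 ± 0.15 SE, limma adjusted p of 0.000244). Cd6, a receptor related to CD5, read 0.161, 0.353 and 0.121 FPKM against 3.08, 1.73 and 2.16 FPKM (log2 change 1.44 ± 0.18 SE, limma adjusted p of 0.000812). Ctla4, an inhibitory receptor for the same ligands as CD28, read 0.918, 0.516 and 0.396 FPKM against 4.76, 1.81 and 4.96 FPKM (log2 change 1.52 ± 0.31 SE, limma adjusted p of 0.0056).

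Below the filter, Foxp3 and Cd28 were left out of the test above. Foxp3, the transcription factor of regulatory T cells, read 0.0825, 0.0823 and 0.0643 FPKM across the controls against 0.711, 0.665 and 1.08 FPKM across the knockouts, and the groups did not overlap. With the filter set at a mean of 0.1 FPKM its log2 change was 0.75 (limma adjusted p of 0.0022). Its exons share bases with Ccdc22 (590), Flicr (853), Gm36995 (373) and Ppp1r3f (266), so these values may hold reads of other genes. Cd28, the receptor that costimulates resting T cells, read 0.117, 0.232 and 0.0838 FPKM against 0.528, 0.151 and 0.357 FPKM, with overlap.

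The receptor chains for IL-2 and IL-15 differed from each other. Il2ra, the chain that gives high affinity for IL-2 and marks activated and regulatory T cells, read 0.624, 0.785 and 0.180 FPKM across the controls against 2.84, 1.07 and 2.58 FPKM across the knockouts. It rose with a log2 change of 1.02 ± 0.28 (SE) and a limma adjusted p of 0.0193, which was lost without Spry1_KO 1 (0.0686) or Spry1_KO 3 (0.0694). Il2rb, shared by the IL-2 and IL-15 receptors, read 9.52, 10.2 and 8.27 FPKM against 7.70, 3.99 and 7.13 FPKM. All knockouts lay below all controls, but the difference of -0.54 ± 0.21 (SE) did not pass (limma adjusted p of 0.0683). The threshold was reached under TPM scaling, median-ratio scaling and limma-voom, without Spry1_KO 1, and without Control 3 and Spry1_KO 2 together (limma adjusted p of 0.0201, 0.0489, 0.0267, 0.0484 and 0.0227).

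**Figure D3:**
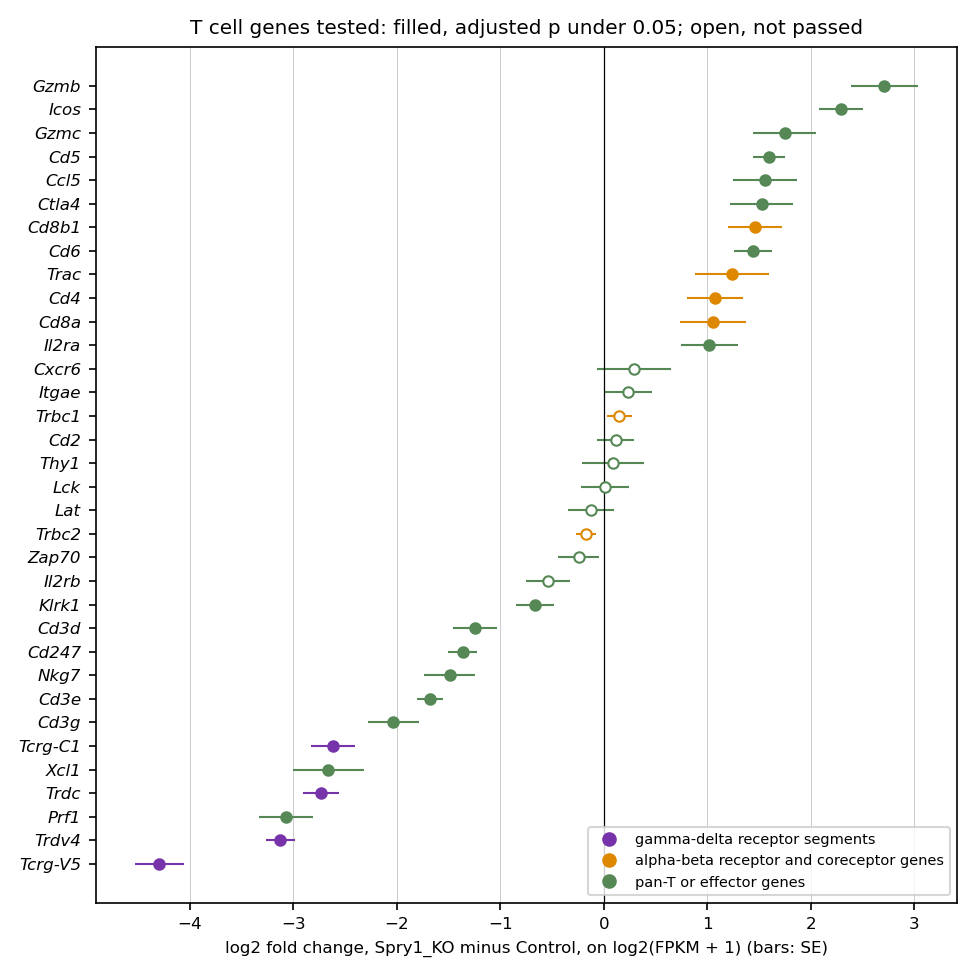
Log2 fold change of knockout against control on the log2(FPKM + 1) scale, with its standard error, for the 34 tested T cell genes, coloured by class, with filled points for adjusted p under 0.05. The gamma-delta segments lie between -4.29 and -2.62, and the rises run up to 2.71 for Gzmb.

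All 7 tested effector genes changed, 3 up and 4 down, where 29.6% of all tested genes rose and 24.4% fell. Gzmb and Ccl5, with control means of 0.352 and 0.378 FPKM, passed the filter only through the knockouts. Prf1 and Klrk1, with knockout means of 0.763 and 0.774 FPKM, passed it only through the controls. The pore-forming protein parted from the granzymes. Prf1 encodes perforin, which opens the target membrane. It read 15.9, 17.4 and 8.93 FPKM across the controls against 1.14, 0.401 and 0.753 FPKM across the knockouts, on 751, 822 and 450 reads against 59, 18 and 32. The mean was 18.5-fold lower (log2 change -3.07 ± 0.26 SE, limma adjusted p of 0.000171). Gzmb, the serine protease granzyme B that perforin lets in, read 0.153, 0.724 and 0.179 FPKM against 9.77, 4.25 and 10.5 FPKM. Its reads went from 4, 19 and 5 to 282, 106 and 249, a 23.3-fold rise in the mean (log2 change 2.71 ± 0.32 SE, limma adjusted p of 0.000633). No sample of either group came near the other group in either gene. Within samples Prf1 stood 104, 24.0 and 50.0 times above Gzmb in the controls, and Gzmb stood 8.60, 10.6 and 14.0 times above Prf1 in the knockouts. Gzmc, a neighbouring granzyme gene on chromosome 14 that was 77.3% identical to Gzmb over 844 aligned columns, was present in both groups. It read 6.93, 12.9 and 5.62 FPKM against 33.3, 21.4 and 34.9 FPKM (log2 change 1.75 ± 0.30 SE, limma adjusted p of 0.00306).

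The promoters of Gzmb and Prf1 are shown because the genes serve the same killing pathway and moved in opposite directions. They are RefSeq sequences on GRCm38.p6, from 250 bases before to 50 after the start and 5′ to 3′ along the gene. Gzmb is at chr14:56262285-56262584 on the reverse strand and Prf1 at chr10:61297586-61297885 on the forward strand. Capitals mark the letters of a RUNX core (TGTGGT), an ETS core (AGGAAG) or an AP-1 site (TGANTCA), searched on both strands. No marked match overlaps another.
Gzmb: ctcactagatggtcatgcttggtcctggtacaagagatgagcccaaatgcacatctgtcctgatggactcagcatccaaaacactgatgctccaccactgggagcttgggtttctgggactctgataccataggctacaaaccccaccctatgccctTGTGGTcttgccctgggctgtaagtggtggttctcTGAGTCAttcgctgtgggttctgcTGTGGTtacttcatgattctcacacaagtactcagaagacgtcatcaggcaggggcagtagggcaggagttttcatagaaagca
Prf1: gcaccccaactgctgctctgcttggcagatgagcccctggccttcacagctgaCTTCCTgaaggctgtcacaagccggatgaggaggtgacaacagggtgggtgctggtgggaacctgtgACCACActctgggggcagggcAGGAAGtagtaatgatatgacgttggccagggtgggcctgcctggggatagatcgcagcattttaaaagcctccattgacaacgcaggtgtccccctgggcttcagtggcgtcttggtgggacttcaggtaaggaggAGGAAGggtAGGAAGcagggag
The Gzmb window holds 2 RUNX cores, starting 93 and 34 bases before the start, with an AP-1 site at 58 bases before it, and no ETS core by these letters. The Prf1 window holds 1 RUNX core at 130 bases before the start and 4 ETS cores, at 197 and 109 bases before it and 29 and 38 after. Of 32851 promoters of this length, 16.8% hold the RUNX core, 35.4% the ETS core and 7.81% the AP-1 letters. Of the 21 T cell genes with a promoter entry, 11 hold the RUNX core, 16 the ETS core and 2 the AP-1 letters in any entry. These counts are of genes, while the shares above are of promoter entries, so the 2 are not alike. The ETS core is in 4 of 6 risen and 6 of 8 fallen T cell genes with an entry. The RUNX core is in 2 of 6 and 4 of 8, and the AP-1 letters are in 1 of 6 and 1 of 8. The matches are letters in a window, and binding was not measured.

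Chemokines and other killer cell genes also went both ways. Xcl1, a chemokine that draws cross-presenting dendritic cells, read 25.3, 20.5 and 12.9 FPKM across the controls against 4.09, 1.54 and 1.39 FPKM across the knockouts. It was 8.35-fold lower (log2 change -2.66 ± 0.34 SE, limma adjusted p of 0.000868), with every knockout below every control. Ccl5, a chemokine of memory and effector T cells, read 0.229, 0.797 and 0.107 FPKM against 5.03, 2.52 and 1.90 FPKM. It was 8.34-fold higher (log2 change 1.55 ± 0.31 SE, limma adjusted p of 0.00542). Nkg7, a protein of cytotoxic granules, read 24.9, 26.4 and 18.8 FPKM against 9.75, 4.85 and 9.04 FPKM (log2 change -1.49 ± 0.25 SE, limma adjusted p of 0.00251). Klrk1, the gene of the stress ligand receptor NKG2D, read 1.99, 1.85 and 1.49 FPKM against 1.18, 0.425 and 0.711 FPKM. Its fall of -0.67 ± 0.18 SE (limma adjusted p of 0.02) was lost without Control 1, Control 2, Spry1_KO 2 or Spry1_KO 3 (limma adjusted p of 0.0668, 0.0578, 0.0531 and 0.0589). Fasl, the death ligand, lay below the filter at 0.0566, 0.0847 and 0.0530 FPKM against 0.514, 0.0893 and 0.126 FPKM, with a single high knockout and no overlap.

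Genes of residency and homing showed no call. Itgae, the integrin alpha chain CD103 that holds T cells to E-cadherin, read 6.34, 8.17 and 5.23 FPKM across the controls against 9.64, 5.28 and 9.18 FPKM across the knockouts. The groups overlapped (log2 difference 0.23, interval -0.32 to 0.79, limma adjusted p of 0.429). Cxcr6, a chemokine receptor of resident T cells, read 4.06, 7.76 and 2.63 FPKM against 6.03, 3.73 and 7.87 FPKM (log2 difference 0.29, interval -0.55 to 1.14, limma adjusted p of 0.518). Cd69, an early activation and retention marker, and the homing receptors Ccr6 and Ccr10 lay below the filter. Their group means were 0.570 and 0.598, 0.588 and 0.810, and 0.759 and 0.454 FPKM in controls and knockouts, and in each gene the groups overlapped.

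Among 28 further genes of receptor signalling, 20 were tested, with a median log2 change of -0.16. Of these 1 rose (5%) and 5 fell (25%), against 29.6% and 24.4% of all tested genes. Those that fell include Cd7, a membrane protein of T and NK cells, which read 64.3, 60.3 and 45.4 FPKM across the controls against 6.98, 3.61 and 6.33 FPKM across the knockouts. Its log2 change of -3.14 ± 0.23 (SE) was of the size of the gamma-delta segments (limma adjusted p of 9.79e-05). Trat1, an adaptor bound to the receptor complex, fell by 2.24 on the log2 scale (limma adjusted p of 0.000148), and Cd96 fell by 2.10 (limma adjusted p of 0.00023). The riser was Cd44, an adhesion receptor also made by keratinocytes, at 34.1 ± 4.67 against 88.7 ± 3.51 FPKM (SD, n = 3 each, limma adjusted p of 0.000136). Il2rg, the common chain of the IL-2 and IL-15 receptors, did not pass, with a log2 difference of -0.14 (limma adjusted p of 0.637).

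While 29.6% of all tested genes rose and 24.4% fell, of 12 tested transcription factors of T cells 2 rose and 7 fell. Several are also made by keratinocytes, and the source of the RNA was not measured. Gata3, a factor of T cells and of the epidermis and hair follicle, fell from 88.9 ± 9.98 to 18.4 ± 3.95 FPKM (SD, n = 3 each, limma adjusted p of 9.78e-05). Rora, a nuclear receptor, fell by 1.16 on the log2 scale (limma adjusted p of 0.000296). Tcf7, a factor of naive and memory T cells, rose by 0.67 (limma adjusted p of 0.00396). Id3 rose by 0.92 (limma adjusted p of 0.0276), a call lost without the filter (0.0638), under TPM scaling (0.124) and without any single sample other than Control 3 (0.0598 to 0.0847). Of 13 genes for products of epidermal gamma-delta T cells, 5 were tested. Sema4d, a semaphorin, rose from a mean of 2.17 to 6.66 FPKM (limma adjusted p of 0.000378). Tnf fell from 3.29 to 1.09 FPKM (limma adjusted p of 0.0198), a call lost without Control 2, Spry1_KO 2 or Spry1_KO 3 (limma adjusted p of 0.0505, 0.0615 and 0.0685).

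Keratinocytes supply ligands to epidermal T cells, and 12 of 19 genes listed as such ligands or partners were tested. Of these 2 rose (16.7%) and 3 fell (25%), against 29.6% and 24.4% of all tested genes. The cell source of the RNA was not measured. Il15, the cytokine on which epidermal gamma-delta T cells depend, read 9.08, 7.62 and 7.40 FPKM across the controls against 0.396, 0.484 and 0.538 FPKM across the knockouts. The groups were far apart and each was narrow. The mean was 17.0-fold lower (log2 change -2.61 ± 0.11 SE, limma adjusted p of 1.35e-05). Il15ra, the chain that presents IL-15, fell from 8.19 to 4.67 FPKM (log2 change -0.71, limma adjusted p of 0.00546). Ccl27a, the ligand of CCR10, read 90.5, 134 and 81.0 FPKM against 15.2, 12.2 and 22.7 FPKM (log2 change -2.55 ± 0.26 SE, limma adjusted p of 0.000335). Icosl, the ligand of ICOS, rose with its receptor, from 1.40, 1.46 and 0.478 FPKM to 5.16, 5.56 and 4.07 FPKM (log2 change 1.52 ± 0.22 SE, limma adjusted p of 0.00139). Cxcl16, the ligand of CXCR6, rose by 0.48 (limma adjusted p of 0.0245), which TPM scaling (0.322) did not keep, nor did the fits without Control 1, Spry1_KO 1 or Spry1_KO 3 (0.0801, 0.0711 and 0.062).

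Other partners did not pass. Skint1, a keratinocyte protein needed for the thymic selection of the Tcrg-V5 lineage, read 23.4, 29.2 and 24.4 FPKM across the controls against 21.0, 18.9 and 30.5 FPKM across the knockouts. Its log2 difference was -0.15 with a 95% interval from -0.58 to 0.28 (limma adjusted p of 0.522). H60c, a ligand of NKG2D, had 0.28 with an interval from -0.13 to 0.68 (limma adjusted p of 0.205). Cdh1, the E-cadherin bound by CD103, had -0.18 with an interval from -0.41 to 0.04 (limma adjusted p of 0.143). Cxadr, Plxnb2, Ccl20 and Cd86 did not pass either, with differences of 0.37, 0.09, 0.57 and -0.30.

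**Figure D4:**
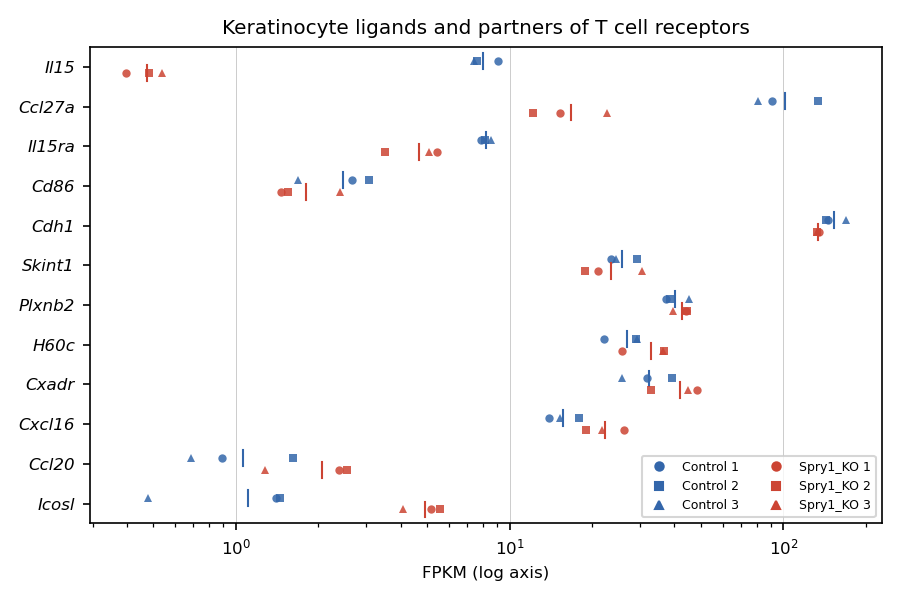
FPKM on a log axis of the 12 tested genes listed as keratinocyte ligands and partners of T cell receptors, in every sample. Controls are in blue and knockouts in red, with the replicate number as circle, square or triangle and the group mean as a vertical tick. The cell source of the RNA was not measured. Il15 is parted most widely (8.03 against 0.473 FPKM), while Skint1 overlaps.

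Markers of other cells moved with the same comparison, and their part in the T cell values was not tested. Their counts stand beside 29.6% of all tested genes higher and 24.4% lower. General leukocyte genes were mixed: of 8, 1 rose and 2 fell, and their summed level was 143, 192 and 123 FPKM across the controls against 146, 83.7 and 150 FPKM across the knockouts. NK cells share Prf1, Gzmb, Gzmc, Nkg7, Klrk1, Xcl1, Ccl5 and Il2rb with T cells. Their 8 markers summed to 12.2, 11.1 and 8.37 FPKM against 11.4, 4.18 and 6.88 FPKM, and of 3 tested Klrd1 and Il18r1 fell (limma adjusted p of 0.00459 and 0.033) and Gzma rose (0.0208). The defining NK receptor gene Ncr1 is listed at 0 in every control and read 0.259, 0.0748 and 0.355 FPKM in the knockouts. B cell markers other than Ighm stayed under 1 FPKM, with Ms4a1 listed at 0 in all 6 samples and Ighm the only 1 of 6 tested, which fell (limma adjusted p of 0.00473). Of 6 tested Langerhans and dendritic cell genes 5 fell, Cd74 and H2-Eb1 being the most abundant (means of 729 against 238 and 371 against 119 FPKM). Macrophage genes rose in 5 of 8 and fell in 2, among them Lyz2 (7.37 against 33.5 FPKM), and summed to 49.4, 54.9 and 37.0 against 147, 85.6 and 157 FPKM. Skeletal muscle genes fell in 6 of 6 tested and summed to 66.4, 32.5 and 17.8 FPKM across the controls against 3.89, 5.84 and 5.62 FPKM across the knockouts. Of the rest, neutrophil genes rose in 3 of 3 tested and mast cell genes in 1 of 1, and fibroblast genes fell in 3 of 5.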

How the data were processed

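RNA-seq of back epidermis was deposited by the authors as FPKM values per gene, 1 column per sample. Per the submitters' processing notes, the tools were HISAT2 2.0.5 and featureCounts 1.5.0-p3 and the build GRCm38. Annotation release and strandedness: not given in the sources used here. Groups and replicate numbers came from the titles, and libraries from 0.4 ug of RNA per the labels' protocols.

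Gene IDs matched GENCODE M21 for 54409 of 54532 rows, and 27 names turned into dates were replaced by ID. FPKM multiplied by exon length gave whole multiples of a step per sample (tolerance 0.1 reads) for 97.0% to 97.3% of values, also for 37 of the 40 members (not Cd5, Cd6 and Foxp3). The top 10 genes of each sample took up 12.6% to 16.0% of all FPKM for controls but 18.6% to 22.2% for knockouts. This lowers the share left to other genes, though not by itself their FPKM, because the FPKM sums also differed. These sums ran from 341508 to 385073 in the controls and from 413426 to 482950 in the knockouts.

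Genes were tested in R 4.3.3 by limma 3.58.1 using a variance trend on log2(FPKM + 1), fitted to genotype alone and read two-sided, for genes whose mean reached 1 FPKM. Benjamini-Hochberg adjustment ran over all 12629 genes, with a threshold of 0.05. The script was tested on simulated data. No pair of replicates agreed within sampling noise (chi-square per gene of 14.1 to 84.0). The members and lists were chosen with earlier results of these data known.

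Named genes were all 40 members, other receptor segments at a mean of 1 FPKM or more, up to 3 genes per direction of each pathway list with the lowest p, all tested partners of T cell receptors, and markers of other cells. A gene that this rule selects is not reported here. Il2rg, Ncr1, Ms4a1, Klrd1, Il18r1 and Gzma were named after their values were seen. Alternatives were a pseudocount of 0.1, a filter at 0.1 FPKM or none, TPM and median-ratio scaling, a replicate block, leaving out each sample or Control 3 and Spry1_KO 2 together, and limma-voom on recovered reads of 12002 genes. Leaving out each sample with the same genes tested was chosen after seeing the data. Figures used matplotlib 3.10.9 under Python 3.11.15.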

Additional observations from a re-analysis of the deposited data

How the results depend on the processing

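Of the 34 tested members, 20 kept their direction and their side of the threshold in each alternative, of 20, that tested them. Of these, 19 were among the 24 called. Cd8b1 and Cd6 were not tested without Spry1_KO 1, nor Cd5 and Cd6 with limma-voom. With TPM scaling, which shifted the median gene by -0.27, 2055 genes were higher and 4470 lower in place of 3736 and 3079. Median-ratio scaling shifted the median by -0.04. The count of risen alpha-beta genes, 4, was 2 without the filter and 0 to 4 when single samples were left out. It was 0 without Spry1_KO 1, where Cd4, Cd8a and Cd8b1 also fell below the filter, and 1 with the same genes tested, 1 without Spry1_KO 3 and 2 without Control 1. Fallen alpha-beta genes numbered 1 under TPM scaling and 1 with limma-voom, in both cases Trbc2. Risen members numbered 6 to 12 across the left-out samples, with 6 without Spry1_KO 1 (8 with the same genes tested), where Cd6 fell below the filter too. Whether the replicate numbers pair the samples is not given in the labels. The deviations of same-numbered samples correlated at -0.10, -0.11 and -0.12, and those of other pairs at -0.043 to 0.147. For 3 samples per group these values cannot settle pairing. With the replicate block 11 members were higher and 12 lower, and Cd8a lost its call (limma adjusted p of 0.0678).

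Signs turned only in genes that had not passed. Under TPM scaling the log2 difference was -0.12 for Trbc1, -0.19 for Thy1, -0.13 for Cd2, -0.24 for Lck, -0.013 for Itgae and -0.19 for Plxnb2. With limma-voom it was -0.042 for Thy1, -0.10 for Lck and -0.043 for Plxnb2, and with median-ratio scaling -0.028 for Lck. Without Control 3 it was -0.078 for Thy1, -0.033 for Cd2, -0.15 for Lck and -0.00062 for Cxcr6. Without Spry1_KO 1 it was -0.15 for Thy1, -0.014 for Cd2 and -0.19 for Lck, and without Spry1_KO 3 -0.011 for Thy1. Lat stood at 0.11 without Spry1_KO 2 and at 0.043 without Control 3 and Spry1_KO 2 together. Over single samples left out, the highest values were 0.41 for Thy1, 0.25 for Cd2, 0.21 for Lck and 0.63 for Cxcr6, and the lowest for Lat -0.33. For these results and the moved counts the cause was not tested, other than where genes fell below the filter. With 3 samples per group and fewer than 30 reads in many control values of Cd4, Cd8b1, Gzmb and Icos, their folds carry a wide counting error.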

Other observations

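Several cytokines for which skin T cells are known were near the limit of these libraries. Il17a, Il17f, Ifng and Il13 lay below a mean of 1 FPKM, and Il4 read 0.757 and 1.32 FPKM in controls and knockouts (limma adjusted p of 0.114). The growth factor genes Igf1, Fgf7 and Fgf10 lay below it as well.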
